A study of Mus musculus with 3 samples.

Results

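Histone-modifying enzymes write and erase acetyl and methyl groups on the histones that package DNA. Their 52 measured genes were compared across induced astrocytes (iAs), mouse primary astrocytes (pAs) and mouse embryonic fibroblasts (MEFs). They were chosen by gene family name: the numbered genes of the Kat acetyltransferases, the Hdac and Sirt deacetylases, the Ezh and Setd lysine methyltransferases, the Prmt arginine methyltransferases and the Kdm lysine demethylases. A probe set, the group of array probes that reads a transcript, counted only if it carried exactly 1 gene symbol, and the genes are 52 of 22180 named genes. By rule, 7 were left out: Hdac1, Hdac2, Hdac3, Hdac8, Kdm1a, Kdm1b and the Y-linked Kdm5d. Prmt2, Kdm2b and Kat14 share their probe sets with another gene and are not measured on their own. The name pattern asks for a digit straight after Kmt2 or Kmt5, so it takes no gene of these methyltransferase families, and their 8 genes are described apart.

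The iAs were MEFs of GFAP-GFP reporter mice given VCSTO for 25 days and then sorted for GFP. In these mice GFP is driven by a promoter of GFAP, an astrocyte filament gene, so the cells were selected by the activity of that promoter. VCSTO is a mixture of valproic acid (V), the GSK3β inhibitor CHIR99021 (C), the TGFβ receptor inhibitor SB-431542 (S), tranylcypromine (T) and OAC1 (O), a compound that activates Oct4. The MEFs came from E13.5 embryos and the pAs from the cortex of mice at postnatal day 2. The labels repeat the treatment text for all 3 samples, and the study's text describes it for the iAs alone. The animals' sex is not stated. Each cell type was measured on 1 Affymetrix array, as log2 levels normalized by RMA. Without replicates no difference carries an error or a test, and every difference given compares these arrays and not the conditions.

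Acetyl groups on histone tails are put on by acetyltransferases and taken off by deacetylases, and acetylated chromatin is generally open to transcription. Methyl groups work by position: on lysine 4 of histone H3 they mark active genes, on lysines 9 and 27 silent ones, and each position has its own writers and erasers. The treatment acts on enzymes of these kinds. Valproic acid inhibits histone deacetylases, mainly of class I, and tranylcypromine inhibits the demethylase LSD1, the product of Kdm1a. The genes of class I and of the LSD1 family were left out of the set by rule. The set thus does not hold these main targets of the compounds. The array reads the amount of transcript and not the activity of an enzyme or the state of its mark.

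The levels of the 52 genes were compared between the arrays in pairs. A gene was counted as higher or lower where its levels differed at least 1.5-fold, a log2 difference of 0.58. Relative to MEFs, 3 genes were higher in iAs (5.77%), against 8.84% of all named genes, and 4 were lower (7.69%), against 10.0%. In pAs, 8 were higher than in MEFs (15.4%), against 12% of all named genes, and 3 were lower (5.77%), against 11.0%. Between the astrocytes, 0 genes were higher in iAs than in pAs, against 8.67% of all named genes, and 5 were lower (9.62%), against 11.1%. The 8 and the 5 include Kdm4d, whose lower levels lay below the array medians and which is at least 1.13-fold and 1.09-fold apart when counted from these. In all, 14 genes (26.9%) were at least 1.5-fold apart between some pair of arrays, against 32% of all named genes, and 38 were not. These shares of all named genes are the background for every count of called genes given below. The median log2 difference of the 52 genes was -0.06 for iAs minus MEFs, 0.00 for pAs minus MEFs and -0.09 for iAs minus pAs, and the median over all named genes was 0 in each comparison. With each array centred on its brighter probe sets, these medians were -0.06, -0.07 and -0.02, and those over all named genes 0.00, -0.08 and 0.07.

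The spread of the differences depended on how it was measured. The SD over the 52 genes was 0.46 for iAs minus MEFs, against 0.71 over all named genes. For pAs minus MEFs the SDs were 0.55 and 0.82, and for iAs minus pAs 0.37 and 0.79. The interquartile range was wider among the enzymes against MEFs, at 0.35 for iAs and 0.53 for pAs, where all named genes gave 0.26 and 0.32, and for iAs minus pAs it was 0.30 against 0.32. The enzymes are also mostly well-detected genes, with 50 of the 52 at or above the median of every array. Among the 13695 named genes above the median level, calls were more frequent than among all genes: 12.5% were higher and 14.6% lower for iAs against MEFs, 17.3% and 15.7% for pAs against MEFs, and 11.9% and 16.0% for iAs against pAs. The interquartile ranges of these brighter genes were 0.51, 0.64 and 0.54 and their SDs 0.86, 1.0 and 0.95, each above that of the enzymes, and 45.3% of them were at least 1.5-fold apart between some pair of arrays.

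The array with the highest level differed between genes. The iA array held the sole highest level for 5 of the 52 genes (9.62%), against 20.5% of all named genes, and the sole lowest for 18 (34.6%), against 21.3%. The pA array held the sole highest for 22 (42.3%), against 24.0%, and the sole lowest for 7, against 27.2% of all named genes. For the MEF array these were 19 (36.5%), against 24.6%, and 14 (26.9%), against 19.3%. Over the brighter genes alone, the iA array was sole highest for 21.9% and sole lowest for 28.9%, and the pA array for 32.2% and 29.1%. The MEF array was so for 30.6% and 25.1% of them. These counts take a lead of any size, some as small as that of Kdm6a in pAs over MEFs (0.003). Centring moved the median over all named genes to -0.08 for pAs minus MEFs and 0.07 for iAs minus pAs. The counts were not repeated after centring. Hdac10, Setd1a, Setd1b and Setd4 had an identical deposited value on all 3 arrays, and 11 further genes had an identical value on a pair of arrays, so a difference of 0 in these data is often an exact tie. Of all named genes, 20.3% had the same value on all 3 arrays.

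**Figure D1:**
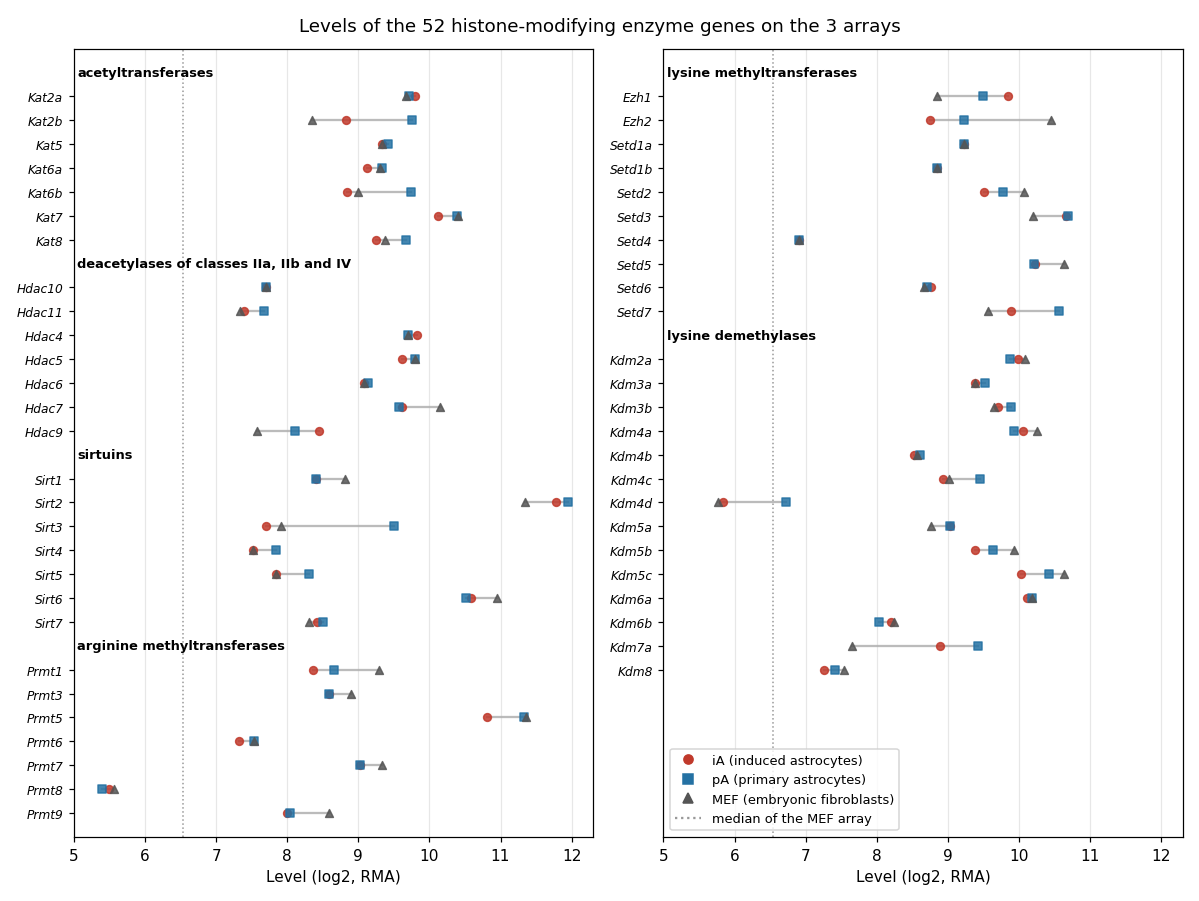
Level of each of the 52 genes (log2, RMA) on the iA, pA and MEF arrays, grouped by enzyme class, with a grey line joining the lowest and the highest array and a dotted line at the median of the MEF array. The longest rows are those of Sirt3, Kdm7a and Ezh2, and those of Hdac10, Setd1a, Setd1b and Setd4 have no length.

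**Figure D2:**
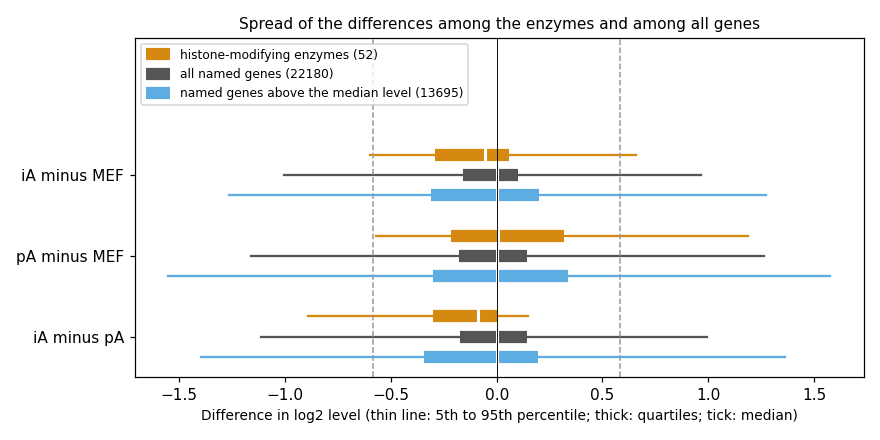
Differences in log2 level for 3 comparisons among the 52 enzymes, among all 22180 named genes and among the 13695 named genes above the median level, as the 5th to 95th percentile (thin line), the quartiles (thick line) and the median (tick). For iAs minus pAs the enzymes reach from -0.89 at the 5th percentile to 0.15 at the 95th, against -1.11 and 0.99 for all named genes, while the thick bars of the enzymes against MEFs are wider than those of all named genes.

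Ezh1 and Ezh2 lay in opposite directions. Both encode the catalytic subunit of Polycomb repressive complex 2 (PRC2), which methylates lysine 27 of histone H3. Ezh2 is typical of dividing cells, where E2F factors drive it, and Ezh1 of resting and differentiated cells. On the log2 scale, Ezh2 stood at 8.75 in iAs, 9.22 in pAs and 10.46 in MEFs, so that iAs lay 3.27-fold and pAs 2.35-fold below MEFs. This was the largest difference below MEFs among the 52 genes in either astrocyte. Ezh1 stood at 9.85 in iAs, 9.50 in pAs and 8.85 in MEFs, so that iAs lay 2.0-fold and pAs 1.57-fold above MEFs. For both genes the pA level lay between the other arrays, with iAs and pAs within 1.5-fold of each other (log2 differences of -0.48 for Ezh2 and 0.35 for Ezh1).

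The 250 bases before the start of Ezh2, of Ezh1 and of Prmt1, an arginine methyltransferase that was also lower in both astrocytes, are shown because Ezh1 and Ezh2 differed from MEFs in opposite directions and Prmt1 in the direction of Ezh2 (RefSeq, GRCm38.p6, transcribed strand, 5′ to 3′). Capitals mark CCAAT, or ATTGG, which is CCAAT on the other strand.
Ezh2, chr6:47595031-47595280, minus strand: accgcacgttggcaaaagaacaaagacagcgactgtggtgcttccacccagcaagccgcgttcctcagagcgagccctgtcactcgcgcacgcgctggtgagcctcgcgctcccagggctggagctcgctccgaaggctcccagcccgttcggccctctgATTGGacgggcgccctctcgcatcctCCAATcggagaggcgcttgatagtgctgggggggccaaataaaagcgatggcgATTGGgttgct
Ezh1, chr11:101226464-101226713, minus strand: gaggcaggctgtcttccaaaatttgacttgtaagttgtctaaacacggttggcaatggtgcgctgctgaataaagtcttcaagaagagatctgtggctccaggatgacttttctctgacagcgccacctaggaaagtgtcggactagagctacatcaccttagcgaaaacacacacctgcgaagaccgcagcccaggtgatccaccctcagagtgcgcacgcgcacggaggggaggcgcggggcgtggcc
Prmt1, chr7:44986421-44986670, minus strand: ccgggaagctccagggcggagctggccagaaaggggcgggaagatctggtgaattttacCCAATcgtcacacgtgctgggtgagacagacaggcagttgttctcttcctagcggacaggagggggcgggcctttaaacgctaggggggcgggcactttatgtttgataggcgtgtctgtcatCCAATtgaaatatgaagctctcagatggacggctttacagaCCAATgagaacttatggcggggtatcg
Ezh2 has 3 matches to CCAAT, from 90, 64 and 11 bases before the start, Prmt1 has 3, from 191, 68 and 27 bases before it, and Ezh1 has none.

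The windows from 250 bases before to 50 after each start were searched on both strands for CCAAT, for TTTGAA, the CHR motif of cell cycle genes, and for TTTGGCGC, TTTCGCGC, TTTCCCGC and TTTGCCGC, which are forms of the E2F motif. These motifs do not overlap each other in the 3 genes shown. An E2F form was found in Ezh2, 4 to 11 bases after the start (chr6:47595001-47595030, minus strand, capitals marking it):
Ezh2, first 30 bases: gcgTTTGGCGCtcggtccggtcgcgtccga
RefSeq windows were found for 44 of the 52 genes, 59 windows in all. The E2F forms stood in 3 of these (5.08%), those of Ezh2, Kat2a and Sirt4, against 2.26% of all 32851 windows. CCAAT stood in 24 (40.7%), against 37.4%, and TTTGAA in 7 (11.9%), against 17.9%. Of the genes past the threshold, CCAAT stood in Ezh2, Prmt1 and Kdm5c, which were lower in iAs than in MEFs. It also stood in Kat2b, Kdm4d, Sirt2 and Sirt3, which were higher in pAs than in MEFs. Among all 44 genes with windows, 22 held CCAAT, and its part in any difference was not tested. A match is a run of letters and not a measured binding site.

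The partners of Ezh1 and Ezh2 in PRC2 lay nearer to the MEF level than Ezh2. Of 9 genes listed and measured, iAs had 1 lower and 0 higher, and pAs 1 higher and 0 lower, with medians of -0.29 and -0.15. Phf19, a PRC2 subunit that binds methylated lysine 36 of histone H3, stood at 6.28 in iAs, 6.77 in pAs and 7.13 in MEFs. The level in iAs lay below the median of that array, so the difference from MEFs, 1.79-fold by the deposited values, is at least 1.45-fold when counted from the median. Rbbp4, a histone-binding subunit shared with other complexes, was 1.54-fold higher in pAs, at 9.71 against 9.09 in MEFs and 9.19 in iAs. Suz12 and Eed, the core subunits without which the complex is not active, had log2 differences from MEFs of -0.58 and -0.30 for iAs and of -0.33 and -0.15 for pAs.

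Genes of proliferation differed in the direction of Ezh2. Of 10 listed, 9 were measured: 8 were lower in iAs than in MEFs and 9 lower in pAs, with median log2 differences of -3.02 and -3.03. Their summed level on the linear scale came to 4176 in iAs, 3863 in pAs and 17814 in MEFs, and 0 of the 9 lay below the median in iAs and 2 in pAs. Mki67, a marker of cycling cells, was below its MEF level by 10.2-fold (iAs) and by at least 15.8-fold (pAs), and Plk1, a mitotic kinase, was 14.1-fold and 22.5-fold lower. The part of proliferation in the level of Ezh2 was not tested. In bulk RNA, fewer cells that express a gene and less RNA of it per cell cannot be told apart.

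**Figure D3:**
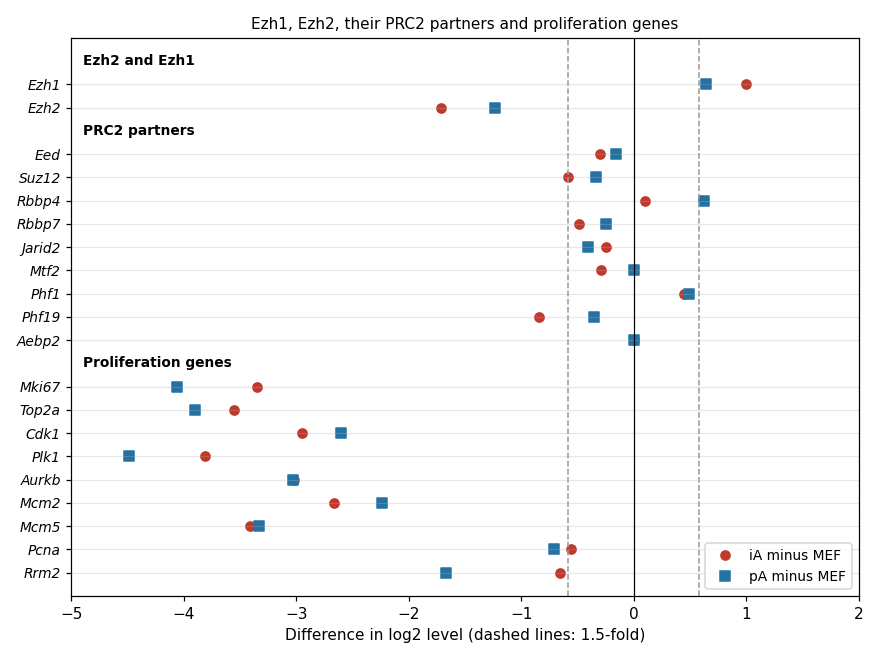
Difference in log2 level from the MEF array for Ezh1, Ezh2, 9 PRC2 partners and 9 proliferation genes, with circles for iAs, squares for pAs and dashed lines at 1.5-fold. Ezh2 lies at -1.71 and -1.23 and Ezh1 at 1.0 and 0.65, most partners lie between the dashed lines, and the proliferation genes lie at -0.56 or lower.

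Of the 7 acetyltransferases, Kat2b and Kat6b passed the threshold, both with their highest level in pAs. Kat2b, also called PCAF, a coactivator that acetylates lysine 9 of histone H3, stood at 8.83 in iAs, 9.76 in pAs and 8.36 in MEFs. It was 2.65-fold above MEFs in pAs and 1.91-fold lower in iAs than in pAs, and iAs lay 1.39-fold above MEFs. Kat6b, or MORF, an acetyltransferase needed in brain and skeletal development, stood at 8.84 in iAs, 9.74 in pAs and 8.997 in MEFs, 1.67-fold above MEFs in pAs and 1.87-fold lower in iAs than in pAs. The pA array was thus the high one for both. The iA level lay near that of MEFs for Kat6b and between those of MEFs and pAs for Kat2b. Kat2a, the closest relative of Kat2b, lay between 9.67 and 9.80 on the 3 arrays. The other 4, Kat5, Kat6a, Kat7 and Kat8, which belong with Kat6b to the MYST family, had log2 differences from MEFs of -0.28 to 0.00 in iAs and -0.01 to 0.29 in pAs.

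Acetyltransferases from outside the Kat names also went both ways. Of 9 measured, iAs had 1 higher and 1 lower, and pAs had 2 higher and 1 lower, with medians of 0.12 and 0.20. Ncoa1, a nuclear receptor coactivator, was highest in pAs, as was Kat2b. It stood at 8.86 in iAs, 9.94 in pAs and 8.85 in MEFs, 2.13-fold above MEFs in pAs and 2.11-fold lower in iAs than in pAs. Hat1, which acetylates new histone H4 before it is laid down on DNA, was 2.04-fold below MEFs for iAs and 1.55-fold for pAs. Clock, a circadian transcription factor described as an acetyltransferase, was 1.74-fold and 1.91-fold higher. Ep300 and Crebbp, the large coactivators p300 and CBP, had log2 differences from MEFs of 0.41 and 0.02 for iAs and of 0.23 and 0.10 for pAs.

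The deacetylases of classes IIa, IIb and IV include the class IIa enzymes Hdac4, Hdac5, Hdac7 and Hdac9, which shuttle between cytoplasm and nucleus and repress the MEF2 transcription factors. Hdac9 stood at 8.45 in iAs, 8.11 in pAs and 7.57 in MEFs, with iAs 1.84-fold above MEFs and pAs 1.45-fold above them, the latter short of the threshold. It is 1 of the 5 genes highest in iAs alone. Hdac7 stood at 9.61 in iAs, 9.57 in pAs and 10.16 in MEFs, 1.51-fold lower in pAs, just past the threshold, and 1.46-fold lower in iAs, just short of it. Hdac4 and Hdac5 stood within 0.13 and 0.19 of their MEF levels in iAs and within 0.01 in pAs. The class IIb genes Hdac6, whose enzyme acts on tubulin, and Hdac10 stood within 0.06 of MEFs in both, and Hdac11, the only class IV enzyme, at 0.06 in iAs and 0.33 in pAs as the mean of 2 probe sets. These disagreed for pAs: the brighter one stood at 8.23 in pAs and 7.61 in MEFs, which passes the threshold, and the other at 7.11 and 7.07.

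The genes that carry or meet these deacetylases were compared too. Of 13 corepressor genes measured of 15 listed, iAs had 0 higher and 2 lower, and pAs had 2 higher and 2 lower. Rcor2, a partner of LSD1 in the CoREST complex, stood at 7.31 in iAs, 6.88 in pAs and 8.77 in MEFs, 2.74-fold (iAs) and 3.71-fold (pAs) below MEFs, and Rcor1 was 1.45-fold and 1.89-fold lower. Sap30, a subunit of the Sin3 complex, and Tbl1xr1, of the NCoR complex, were highest in pAs, and 2.81-fold and 2.17-fold lower in iAs than in pAs. Of the MEF2 genes, 3 of 4 were measured and none reached 1.5-fold from MEFs. Mef2c was 1.70-fold and Mef2a 1.42-fold higher in iAs than in pAs, and the medians of the 3 genes were 0.37 for iAs and -0.18 for pAs against MEFs. Among the BET genes, which encode readers of acetyl-lysine, 3 of 4 were measured and none reached 1.5-fold, the widest being Brd3 with -0.14 in pAs and 0.00 in iAs, then Brd2 with 0.02 in iAs. Of the 6 class I deacetylase and LSD1 family genes left out of the set, Hdac2 was 1.61-fold lower in both astrocytes, Hdac1 was 1.57-fold lower in pAs, and Kdm1a had log2 differences of -0.58 in iAs and -0.10 in pAs.

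The sirtuins are deacetylases that use NAD, and Sirt3, Sirt4 and Sirt5 act in mitochondria. Sirt3 had the widest range of the 52 genes. It stood at 7.70 in iAs, 9.50 in pAs and 7.91 in MEFs, 3.02-fold above MEFs in pAs and 3.49-fold lower in iAs than in pAs. The iA level lay 1.16-fold below that of MEFs, so pAs alone were high. Sirt4 and Sirt5 had the same deposited values in iAs and MEFs and log2 differences of 0.31 and 0.47 in pAs. Sirt2, which deacetylates tubulin and is abundant in brain, stood at 11.77 in iAs, 11.94 in pAs and 11.35 in MEFs, with pAs 1.51-fold above MEFs, just past the threshold, and iAs 1.34-fold. Sirt1, Sirt6 and Sirt7, which are mainly nuclear, differed from MEFs by -0.41, -0.36 and 0.10 (log2) for iAs and by -0.41, -0.43 and 0.19 for pAs. Of the 7 sirtuins, 0 were called in iAs against MEFs, 2 were higher in pAs, and 1 was lower in iAs than in pAs.

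**Figure D4:**
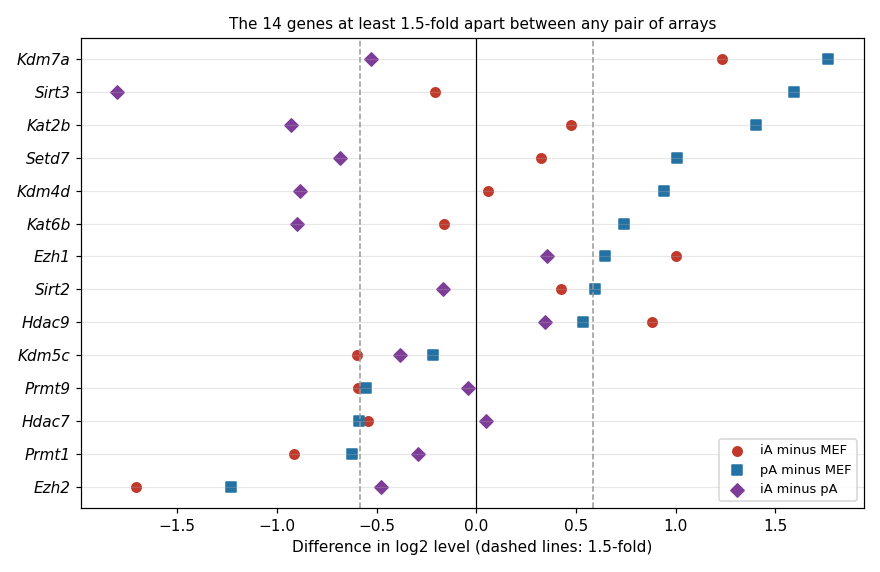
Differences in log2 level for the 14 genes at least 1.5-fold apart between any pair of arrays (dashed lines), with circles for iAs minus MEFs, squares for pAs minus MEFs and diamonds for iAs minus pAs. For Sirt3, Kat6b and Kdm4d the iA circle sits near 0 while the pA square lies past the line, and for Prmt9 and Hdac7 circle and square lie close together on the left. For Ezh2 and Prmt1 both lie on the left, with the circle further out.

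Among the 8 Setd genes, which share the catalytic SET domain, Setd7 was the 1 past the threshold. Setd7, which adds a single methyl group to lysine 4 of histone H3 and to other proteins, stood at 9.88 in iAs, 10.57 in pAs and 9.56 in MEFs, 2.01-fold above MEFs in pAs and 1.61-fold lower in iAs than in pAs, with iAs 0.32 above MEFs on the log2 scale. Setd2, the main enzyme for trimethylated lysine 36 of histone H3, came just short of the threshold in iAs, at 9.50 against 10.08 in MEFs and 9.78 in pAs. Setd3, an actin histidine methyltransferase despite its name, and Setd5 had log2 differences from MEFs of 0.46 and -0.41 for iAs and of 0.49 and -0.42 for pAs. Setd1a and Setd1b, the lysine 4 methyltransferases of the SET1 complexes, had the same deposited value on all arrays, as did Setd4, and Setd6 lay 0.10 and 0.04 above MEFs.

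The 8 genes of the Kmt2 and Kmt5 families were all measured. The Kmt2 enzymes methylate lysine 4 of histone H3 at promoters and enhancers, and the Kmt5 enzymes lysine 20 of histone H4. In iAs 0 of the 8 were called, in pAs 2 were higher than in MEFs, and 1 was lower in iAs than in pAs. Kmt2c stood at 8.46 in iAs, 9.11 in pAs and 8.23 in MEFs, 1.84-fold above MEFs in pAs and 1.56-fold lower in iAs than in pAs. Kmt2a, or MLL1, stood at 9.52, 9.80 and 9.02, with pAs 1.72-fold and iAs 1.41-fold above MEFs. The medians were 0.16 in iAs and 0.24 in pAs. Of 10 genes of the COMPASS core and partners, which make the Kmt2 and Setd1 enzymes active, 3 were lower and 0 higher in iAs and 0 were called in pAs, with medians of -0.28 and -0.12. The 3 were Dpy30 and Wdr5, core subunits, at 1.75-fold and 1.73-fold lower, and Men1, the menin gene, at 1.55-fold lower in iAs with the same value in pAs and MEFs.

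Arginine methyltransferases lay at or below their MEF levels in these data. Counting a difference of any size, 7 of 7 Prmt genes were lower in iAs, against 37.0% of all named genes and 46.8% of the brighter ones. In pAs 6 were lower, against 39.9% and 44.7%, and Prmt6 was equal. The medians were -0.31 in both. In iAs 2 of the 7 passed the threshold, against 10.0% of all named genes, and in pAs 1, against 11.0%. Counting any size, 53.8% of the 52 genes were lower in iAs than in MEFs, and 29.9% of all named genes were equal. The lean was not particular to these genes, with 9 of 10 COMPASS and 10 of 13 corepressor genes lower in iAs. Among the Kmt2 and Kmt5 genes 1 of 8 was lower and 6 were higher. Prmt1, which makes most asymmetric dimethylarginine in the cell and marks histone H4, stood at 8.37 in iAs, 8.66 in pAs and 9.28 in MEFs, 1.89-fold and 1.54-fold lower. Prmt9, known for methylating a splicing factor, stood at 7.99, 8.04 and 8.59, 1.51-fold lower in iAs, just past the threshold, and 1.47-fold lower in pAs. Prmt5, the main enzyme of symmetric dimethylarginine, stood at 10.80 in iAs, 11.33 in pAs and 11.36 in MEFs, a log2 difference of -0.55 in iAs. Prmt8, which in the mouse is a gene of neurons, lay below the median on all arrays, at 5.49 in iAs and 5.57 in MEFs. Carm1, the arginine methyltransferase known as Prmt4, is in a list of 10 measured methyltransferases from outside the name pattern, of which 2 were lower in iAs and 4 in pAs and 0 higher, and it lay 1.34-fold (iAs) and 1.72-fold (pAs) below MEFs. Smyd5 and Nsd2, a lysine 36 methyltransferase, were lower too, by 1.73-fold and 1.62-fold for iAs and by 1.65-fold and 1.63-fold for pAs. In that list Smyd2, a methyltransferase of p53 and other proteins, stood at 11.25 in iAs, 9.78 in pAs and 10.92 in MEFs, 2.77-fold higher in iAs than in pAs.

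The 14 lysine demethylases have a JmjC catalytic domain that works with iron and oxygen. Kdm7a, which removes methyl groups from lysines 9 and 27 of histone H3 and is known for promoting neural differentiation in mouse embryonic stem cells, stood at 8.89 in iAs, 9.42 in pAs and 7.66 in MEFs. The iA level lay 2.35-fold and the pA level 3.40-fold above MEFs, the largest difference above MEFs among the 52 genes in each of these comparisons, with both astrocytes above the fibroblasts. Kdm4d, a lysine 9 demethylase best known from testis, stood at 5.83 in iAs, 6.72 in pAs and 5.77 in MEFs. The levels in iAs and MEFs lay below the array medians, so the deposited difference of 0.94 between pAs and MEFs comes to at least 1.13-fold when counted from the MEF median. The other lysine 9 and lysine 36 demethylases, Kdm2a, Kdm3a, Kdm3b, Kdm4a, Kdm4b and Kdm4c, had log2 differences from MEFs of -0.19 to 0.05 in iAs and -0.32 to 0.44 in pAs. Kdm6b, which removes the lysine 27 mark that Ezh1 and Ezh2 write, had -0.05 in iAs and -0.21 in pAs as the mean of 2 probe sets, of which 1 lay below the median with the same value on all arrays. Kdm8, first described as a lysine 36 demethylase, stood at 7.26 in iAs, 7.41 in pAs and 7.54 in MEFs.

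The Kdm5 enzymes take methyl groups off lysine 4 of histone H3. Kdm5c stood at 10.03 in iAs, 10.42 in pAs and 10.63 in MEFs, 1.51-fold lower in iAs, just past the threshold, and 1.16-fold lower in pAs. Kdm5b stood at 9.38, 9.63 and 9.93, just short of the threshold in iAs, and Kdm5a had the same value in iAs and pAs, 0.27 above MEFs. Kdm5c, Kdm6a and Hdac6 lie on the X chromosome, and Kdm5c and Kdm6a are known to be expressed from both X chromosomes in female cells. Xist, the RNA that silences an X chromosome, stood at 6.64 in iAs, 11.45 in pAs and 11.79 in MEFs, and Uty, the Y-linked relative of Kdm6a, at 8.99, 7.78 and 4.77. Eif2s3y, also Y-linked, stood at 9.94 in iAs, 8.54 in pAs and 5.51 in MEFs. By these genes the MEF array read as female, the iA array as male and the pA array as a mixture. The iA and MEF arrays thus differed in sex as well as in treatment. For Kdm5c the sex of the animals and the treatment cannot be told apart. Kdm6a stood at 10.12 in iAs, 10.19 in pAs and 10.18 in MEFs, and Hdac6 had the same value in iAs and MEFs.

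JmjC genes with other names were listed too. Of 8 listed outside the name pattern, 6 were measured, with 2 higher and 1 lower than in MEFs in each astrocyte, Uty being 1 of the higher ones in both and Riox1, a nucleolar hydroxylase, the lower one in both, by 1.51-fold. Uty is Y-linked and lay below the median in MEFs, so for it sex and cell type cannot be told apart. Jmjd1c, of the Kdm3 family, stood at 10.49 in iAs, 9.87 in pAs and 9.60 in MEFs, with iAs 1.85-fold and pAs 1.20-fold above MEFs. Hr, or hairless, a corepressor with demethylase activity, stood at 8.03, 9.04 and 7.54, 2.84-fold higher in pAs than in MEFs. The 4 measured lysine 9 methyltransferases of 6 listed, Ehmt1, Ehmt2, Setdb1 and Setdb2, were all within 1.5-fold, with medians of -0.23 in iAs and -0.17 in pAs.

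Polycomb repressive complex 1 (PRC1), which binds the lysine 27 mark, was measured for 16 of 18 genes. Against MEFs, iAs had 2 higher and 1 lower and pAs had 3 higher and 0 lower, and against pAs, iAs had 1 higher and 4 lower. Cbx7, a subunit that binds methylated lysine 27, stood at 8.42 in iAs, 9.27 in pAs and 7.70 in MEFs, 1.64-fold and 2.97-fold higher. Pcgf5 was 2.23-fold above MEFs in pAs and 2.13-fold lower in iAs than in pAs, and Phc1 in iAs lay 1.60-fold below MEFs and 2.0-fold below pAs.

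The cell type labels were set against marker genes. Of 8 astrocyte markers, pAs had 7 higher and 0 lower than MEFs, and iAs had 2 higher, Gfap and S100b, and 4 lower. Aqp4, Slc1a2 and Slc1a3, which encode the water channel and glutamate transporters of astrocytes, lay below the median of the iA array, at 5.82, 5.96 and 5.88. Counted from that median, Aqp4, 1 of the 4 lower ones, is at least 1.16-fold below MEFs, short of the threshold. The astrocyte markers summed on the linear scale to 7907 in the iA, 36884 in the pA and 5409 in the MEF sample. These sums include Gfap, which stood at 11.72 in iAs, 13.26 in pAs and 7.80 in MEFs. The iAs were sorted by GFP driven by its promoter, so their Gfap level and a sum above that of MEFs cannot be told apart from this selection. The 8 fibroblast markers, of which 7 were lower in each astrocyte, summed to 12279.5, 4057 and 40174. Of the fibroblast markers, Postn was 2.36-fold (iAs) and at least 103-fold (pAs) below MEFs and Lum at least 21.3-fold and 21.6-fold. Of 6 neuron markers iAs had 4 higher and 0 lower, among them Snap25 at 32.6-fold and Stmn2 at 4.78-fold, and pAs had 2 higher and 1 lower. Microglia markers were lower for 3 of 6 in iAs and 2 of 6 in pAs with none higher, led by Tmem119 (4.05-fold and 4.49-fold) and Csf1r (2.13-fold and 1.64-fold). Endothelial markers were higher for 1 of 4 in each, Kdr in iAs (2.45-fold) and Cdh5 in pAs (1.84-fold). Of 5 measured genes of the oligodendrocyte lineage iAs had 1 lower, and pAs had 2 higher and 1 lower, the higher ones being Olig1 (12-fold) and Olig2 and the lower one Pdgfra (2.97-fold and 33.3-fold), which is also a fibroblast marker. The part of such differences in cell makeup in the levels of the enzymes was not tested.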

How the data were processed

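RNA of 1 iA, 1 pA and 1 MEF sample was hybridised to Affymetrix Mouse Gene 2.0 ST arrays. The deposited values are log2 levels that the authors normalized by robust multi-array average (RMA), which corrects background, equalises the arrays and pools probes, using Partek software whose version is not given in the sources used here. The labels' processing notes name MAS5 as well. Raw intensities were not used here. Of 41345 probe sets, 23521 carry 1 gene symbol in the platform's annotation, and the log2 values of a gene's probe sets were averaged. Differences were taken between arrays, and a gene was called at 1.5-fold, the threshold of the study's methods. Where the lower level of a called difference lay below its array's median (6.59 in iAs, 6.57 in pAs and 6.53 in MEFs), the fold is counted from that median and written as at least that much. With 1 array per cell type no test was possible, and the number of arrays limits the precision. Python 3.11.15, numpy 2.4.6, pandas 2.3.3 and matplotlib 3.10.9 were used, and the scripts were tested on simulated data. All 52 genes matched the RefSeq gene table (GRCm38.p6), which gave their chromosomes. Promoter windows were available for 44 of them and not for the other 8. Levels on each array are given for those called in any comparison, and from each other list 2 to 5 genes were named that have the largest difference in any comparison, with some further genes chosen after their values were seen. The genes and lists were chosen with earlier results of these data known. Alternatives were quantile normalization, centring, an offset of 32, a filter on dim genes, the brightest probe set, a lower fold threshold and a threshold of 2-fold, the Kmt2 and Kmt5 families as members, and leaving out X-linked genes.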

Additional observations from a re-analysis of the deposited data

How the results depend on the processing

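The counts past a threshold depend on it. With the threshold at a log2 difference of 0.32, iAs against MEFs gave 7 higher and 11 lower of the 52 genes, pAs against MEFs 13 and 7, and iAs against pAs 2 and 12. At 2-fold, iAs against MEFs gave 1 higher and 1 lower, pAs against MEFs 4 and 1, and iAs against pAs 1 lower. With an offset of 32 on the linear scale, 2 genes were below MEFs in iAs and 1 in pAs. Under the other alternatives every count stayed within 1.5 times its value, and none of the called differences changed sign. Called differences fell short of the threshold in 9 cases. Those close to it were Kdm5c after quantile normalization (-0.58) and with the offset (-0.58), Prmt9 (-0.54), Hdac7 (-0.57) and Prmt1 in pAs (-0.58) with the offset, Ezh1 (0.57) and Sirt2 (0.52) in pAs after centring. Kdm4d, with deposited differences of 0.94 and -0.88, fell short in pAs against MEFs (0.18) and in iAs against pAs (-0.13) once levels below an array's median were raised to it, a setting chosen after the data were seen. With the brightest probe set of each gene, Hdac11 was added to the genes higher in pAs, giving 9. The cause was not tested, apart from the offset and the raised levels, which by construction shrink differences, most for dim genes. No paired analysis was possible because there is 1 array per cell type, and for the same reason no replicate could be left out.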
